A study of Rattus norvegicus with 23 samples.

Results

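The genes described here are the nuclear-encoded subunits of the oxidative phosphorylation complexes, taken in the heart and the kidney of rats with experimental kidney disease. They were chosen by gene symbol alone, from the symbols of complex I (Nduf), complex II (Sdh), complex III (Uqcr and Cyc1), complex IV (Cox4 to Cox8) and complex V (Atp5). The rule found 84 gene identifiers among 32552, of which 37 belonged to complex I, 4 to complex II, 10 to complex III, 16 to complex IV and 17 to complex V. The 84 identifiers carried 81 symbols, because Ndufv3, Uqcrb and Cox6b1 each had 2 identifiers, which are told apart below by their chromosome. Exons of 10 members overlap those of another gene, which makes their counts less certain. Cox7a1, Cox7a2, Ndufa1 and Ndufs6 were not found by the rule and are not analysed here.

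All animals were Sprague-Dawley rats, labelled 13 weeks old, sampled 4 weeks after surgery. The Sham group had sham surgery. The NX group had a 5/6 partial nephrectomy, the removal of most kidney tissue. The AVF+NX group had the same nephrectomy and, in addition, an arteriovenous fistula, a surgical connection of the jugular vein to the carotid artery that adds a volume load to the heart. Poly(A)-selected, strand-specific RNA sequencing was done on snap-frozen heart and kidney, with 4 libraries per group and organ except for 3 libraries of heart Sham. The labels call the libraries biological replicates but do not tie a heart to a kidney of the same rat, and they do not give the part of the heart or kidney that was sampled.

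The respiratory chain passes electrons from NADH (complex I) and succinate (complex II) through ubiquinol and cytochrome c (complex III) to oxygen (complex IV), and the proton gradient built on the way drives ATP synthesis by complex V. Most subunits are encoded in the nucleus and imported, while a small set, belonging to all complexes but complex II, is transcribed from mitochondrial DNA. Heart muscle and the proximal tubule of the kidney are among the tissues richest in mitochondria, and several complex IV subunits exist as a general form and as a form of heart and skeletal muscle.

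Library depth differed with the groups in the heart, and this touches every heart comparison below. Total counts were 9894716 to 11866042 in heart Sham, 9605973 to 22679092 in heart NX and 11889483 to 48079431 in heart AVF+NX, against 9069354 to 18782085 over the 12 kidney libraries. The heart NX libraries fell into a shallow pair (replicates 1 and 4, with 9605973 and 10511439 counts) and a deeper pair (replicates 2 and 3, with 22679092 and 18034380 counts). An index of small noncoding RNA, the mean centred log2 CPM (counts scaled to each library's TMM-adjusted total) of 63 genes with Rfam names, was 0.79 to 0.84 in heart Sham, 1.00 and 0.67 in NX replicates 1 and 4, -1.02 and -0.62 in NX replicates 2 and 3, and -0.89 to -0.28 in AVF+NX. The libraries matched their organ labels. The summed level of 14 cardiomyocyte markers lay between 81945 and 98130.5 CPM in every heart library and between 29.1 and 41.9 CPM in every kidney library, and 12 proximal tubule markers summed to 15252 CPM or more in every kidney library and to 4.62 CPM or less in every heart library.

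In sham-operated rats the heart held far more transcript of nearly all subunits than the kidney. Of the 84 members, 81 were higher in heart Sham than in kidney Sham and 1 was lower, by edgeR's quasi-likelihood test at an adjusted p below 0.05, in a comparison in which 71.2% of 15222 genes were called (33.2% higher and 37.9% lower). The median log2 difference of the members, heart minus kidney, was 1.98, against -0.11 over all genes tested. It was similar from complex to complex, at 2.03 for complex I, 1.47 for complex II, 2.06 for complex III, 2.03 for complex IV and 1.74 for complex V. Before the scaling, the members took 5.49% to 5.92% of the nuclear-encoded counts of heart Sham libraries and 1.89% to 2.01% of those of kidney Sham libraries. In bulk tissue, more cells of a type and more RNA per cell cannot be told apart.

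Levels of different subunits are compared here per length, as TPM (transcripts scaled by length and library total) computed from the counts and the deposited gene lengths. In heart Sham the highest member was Cox8b, the muscle form of a small complex IV subunit, at 6318 ± 750.0 TPM (SD, n = 3), followed by Atp5f1b, the catalytic beta subunit of ATP synthase, at 4886 ± 18.3 TPM. Cox6a2, the muscle form of complex IV subunit VIa, stood next at 4880.1 ± 233 TPM, and its range overlapped that of Atp5f1b, while Cox8b was above both in every library. In kidney Sham the order was led by Atp5f1b at 2639 ± 113 TPM (SD, n = 4), Atp5f1a, the alpha subunit of ATP synthase, at 1647 ± 86.7 TPM, and Cox8a, the general form of subunit VIII, at 1459.7 ± 98.2 TPM. The median level was lowest in complex I (520.3 TPM in heart, 241 TPM in kidney) and highest in complex V (1350.1 TPM in heart, 631 TPM in kidney). The lowest members were alternative isoforms or second copies. Cox4i2, known as the hypoxia-associated and lung form of subunit IV, stood at 14.7 ± 1.72 TPM in heart Sham, Ndufa4l2 at 12.1 ± 2.12 TPM and Cox6b2, known as the testis form of subunit VIb, at 0.774 ± 0.824 TPM.

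**Figure D1:**
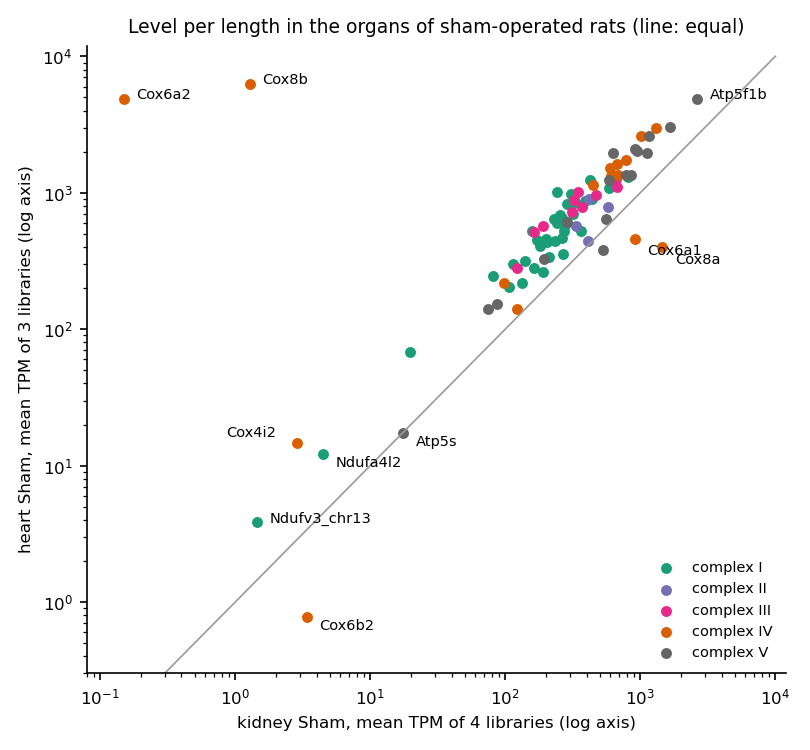
Mean TPM of each of the 84 members in kidney Sham (x axis, 4 libraries) and heart Sham (y axis, 3 libraries), both axes logarithmic, coloured by complex, with a line of equal level. Nearly all points lie above the line, Cox8a, Cox6a1, Cox6b2 and Atp5if1 lie below it, Atp5s lies on it, and Cox6a2 and Cox8b stand apart with 4880.1 and 6318 TPM in heart and almost none in kidney.

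The exceptions were the paired isoforms of complex IV. Cox6a2 had 14756 to 19434 counts in each heart Sham library, and 2 counts in the 4 kidney Sham libraries together. Cox8b had 12267 to 18238 counts in each heart Sham library and 10 counts in the 4 kidney Sham libraries together. The ratio of heart to kidney was 34826 for Cox6a2 (95% interval 9641 to 287574) and 6080.3 for Cox8b (3306 to 12679), intervals that cover the counting error of the kidney counts only. Their general counterparts had no such excess in the heart. Cox8a was lower in heart than in kidney by a log2 difference of -1.02 ± 0.14 (SE, edgeR adjusted p = 1.15e-06), and for Cox6a1 the difference of -0.13 ± 0.14 did not pass the test (edgeR adjusted p = 0.408). In TPM, which is not TMM-scaled, Cox6a1 was at 460.0 ± 6.91 in heart Sham and 911 ± 31.4 in kidney Sham, with no overlap. Atp5if1, the inhibitor of ATP synthase, turned with the scale, since it was higher in heart by a log2 difference of 0.37 ± 0.13 in edgeR (adjusted p = 0.0131) but lower in TPM, at 379.9 ± 44.4 against 530.3 ± 33.2. Per length, Cox6a2 made up 91.0% to 91.7% of the Cox6a pair in heart Sham and Cox8b 93.8% to 94.5% of the Cox8 pair, against at most 0.0629% and 0.154% in kidney Sham. Subunit IV showed no such switch, since Cox4i2 was 0.434% to 0.531% of the Cox4i pair in heart Sham and 0.153% to 0.309% in kidney Sham.

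Cox6a1 had no matched upstream region, and those of Cox6a2, Cox8b and Cox8a are shown as examples. Each is the 250 bases before the RefSeq gene start on the rat build GRCr8, read 5′ to 3′ on the strand of the gene. Capitals mark matches to 4 of the 8 letter patterns that were searched on both strands, namely those of MEF2 (a factor of muscle genes), the E-box, ETS and the TATA box. The E-box of the MyoD type was searched by the letters CAGCTG. The ETS pattern, which GABPA binds, was searched by CCGGAAG. The TATA box was searched by its usual letters TATAAA. Cox6a2 lies at chr1:192219717-192219966, Cox8b at chr1:205408274-205408523 and Cox8a at chr1:213833624-213833873, all on the minus strand.
Cox6a2: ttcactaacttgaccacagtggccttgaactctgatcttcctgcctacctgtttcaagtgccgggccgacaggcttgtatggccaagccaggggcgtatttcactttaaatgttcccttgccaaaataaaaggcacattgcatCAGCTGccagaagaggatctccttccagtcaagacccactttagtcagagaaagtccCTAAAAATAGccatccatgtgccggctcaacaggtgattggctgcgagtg
Cox8b: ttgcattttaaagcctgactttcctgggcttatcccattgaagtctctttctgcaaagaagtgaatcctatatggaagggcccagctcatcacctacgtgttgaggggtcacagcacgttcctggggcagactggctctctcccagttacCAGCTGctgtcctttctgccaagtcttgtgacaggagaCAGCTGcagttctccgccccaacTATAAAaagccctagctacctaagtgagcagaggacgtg
Cox8a: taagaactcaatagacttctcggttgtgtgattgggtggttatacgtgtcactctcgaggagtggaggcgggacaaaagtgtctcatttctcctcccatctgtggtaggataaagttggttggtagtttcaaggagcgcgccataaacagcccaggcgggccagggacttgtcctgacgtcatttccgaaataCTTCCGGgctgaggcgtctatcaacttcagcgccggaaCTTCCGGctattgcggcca
In the Cox6a2 region the MEF2 pattern begins 50 bases before the start and an E-box 107 bases before it. The Cox8b region holds E-boxes beginning 100 and 62 bases before the start and a TATA box at 39 bases. The Cox8a region holds neither of these and has the ETS pattern at 57 and 19 bases. Of the 84 members, 68 were matched by symbol or synonym to an upstream region in the RefSeq table. For Cox7a2l2 and Atp5md that region lay on another chromosome than the counted gene (14 against 8, and 1 against 10). Both may not be the members' own and are kept in the counts, with a TATA box in each and the ETS pattern in that of Atp5md. Of the 68 regions, 18 (26.5%) held the ETS pattern, against 7.27% of all 33465 upstream regions of that length. The core of the NRF1 site, GCATGCGC, was found in 8 of 68 (11.8%) against 2.20%, and the longer NRF1 palindrome, which contains that core, in 4 of 68 (5.88%) against 0.762%. The other patterns had shares of 1.47% against 0.693% (AAGATGGCG, the YY1 pattern), 1.47% against 0.388% (TCAAGGTCA, the estrogen-related receptor pattern), 2.94% against 3.41% (MEF2), 10.3% against 12.9% (TATA box) and 11.8% against 12% (E-box). The E-box, MEF2 and TATA patterns also stood in members other than Cox6a2 and Cox8b, such as Cox4i1 (E-box), Cox5b (MEF2) and Uqcr10 (TATA box). These are matches of letters, not measured binding. The patterns and the displayed regions were chosen after values of the members had been seen.

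The combined operation was compared with sham surgery in the heart to ask what kidney disease with an added volume load goes with. Of 83 members tested, 44 fell and 6 rose in AVF+NX against Sham, in a comparison in which 34.1% of 12794 genes were called (18.6% lower and 15.4% higher). The median log2 fold change of the members was -0.31, against 0.01 over all genes tested. In 51 members all 4 AVF+NX libraries lay below all 3 Sham libraries and in 8 they lay above, where 24.6% and 22.8% of all genes tested did so. The members together summed to 45436, 44239.6 and 43303 CPM in the 3 Sham libraries, to 44258, 38145, 36864 and 42576 CPM in NX replicates 1 to 4, and to 32751, 34553, 35305 and 37074 CPM in AVF+NX. Every AVF+NX library was below every Sham library, NX replicate 2 lay between the groups, NX replicate 3 lay just under the highest AVF+NX library, and NX replicates 1 and 4 lay near or just under Sham.

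The counts of called members differed between complexes, in a comparison in which 18.6% of all genes tested were lower and 15.4% higher. Complex V had 14 members lower and 1 higher of 17, complex IV had 9 lower and 0 higher of 15, complex I had 15 lower and 2 higher of 37, complex III had 4 lower and 2 higher of 10, and complex II had 2 lower and 1 higher of 4. Summed over its members, complex IV in AVF+NX was at 0.65 of its Sham level (5524 ± 575 CPM, n = 4, against 8495 ± 349 CPM, SD, n = 3) and complex V at 0.744 (12324 ± 593 against 16564 ± 269 CPM), while complexes I, II and III were at 0.884, 0.89 and 0.889. In none of the 5 complexes did the sums of AVF+NX and Sham overlap. Sums weigh members by their counts, and Cox6a2 and Cox8b, given below, made up much of the fall of complex IV. Short genes of any kind fell more often than long ones in this comparison, as given below. The part of gene length in the differences between complexes was not tested.

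**Figure D2:**
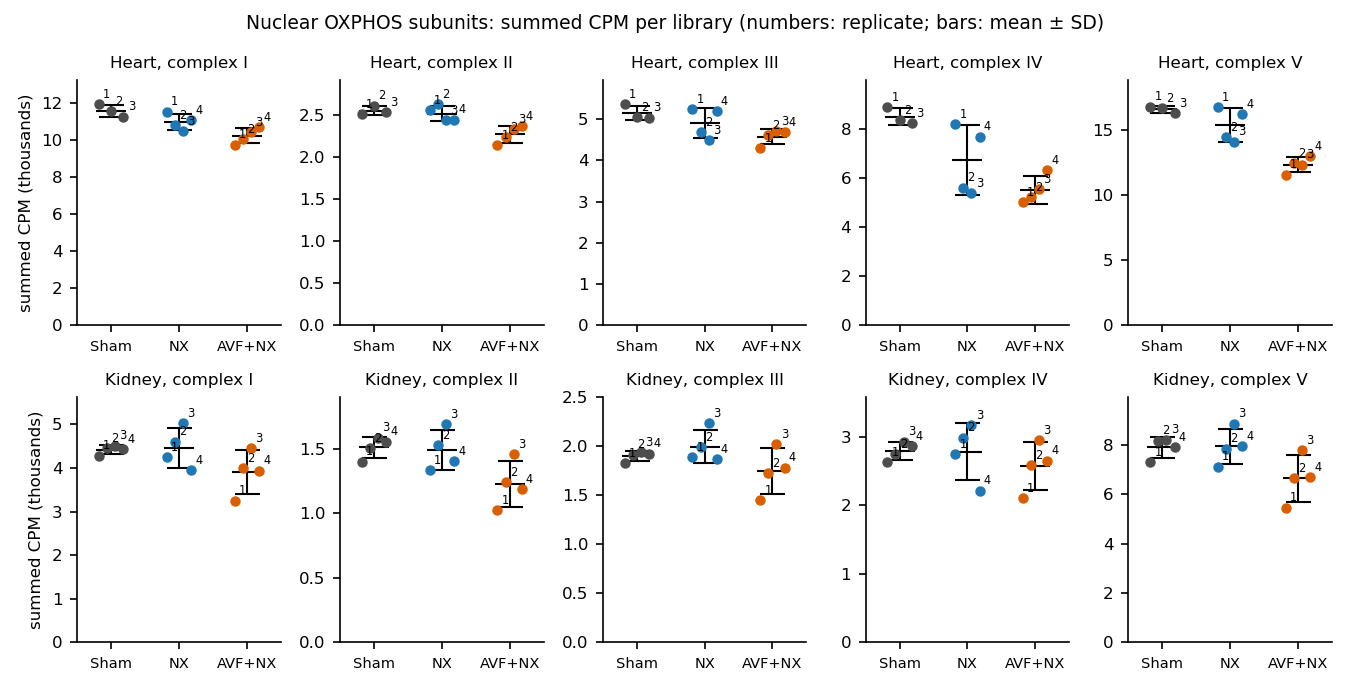
Summed CPM (axis in units of 1000) of the members of each complex in every heart and kidney library, with replicate numbers, and bars for the group mean ± SD. In the heart, complexes IV and V show the widest gap between Sham and AVF+NX, and NX replicates 2 and 3 lie near the AVF+NX libraries for complex IV; in the kidney the groups overlap in every complex.

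All heart calls of AVF+NX against Sham were lost when library depth or the small RNA index entered the model. With the log2 total count as a covariate 0 members were called (29 at an unadjusted p under 0.05, edgeR), and with the small RNA index 0 were called (29 at an unadjusted p under 0.05), and all 4 AVF+NX libraries were deeper than every Sham library, replicate 4 only slightly, and had an index below 0. The loss was general, since 2 and 58 of 12794 genes were called in these fits against 4357 without a covariate, and the members' median log2 fold change was -0.25 and -0.20. With all heart libraries thinned to the smallest total, 50 members were called, of which 49 were the same, and 3929 genes in all. AVF+NX replicate 4, with 11889483 counts and a small RNA index of -0.83, was below all 3 Sham libraries and NX replicates 1 and 4 in 52 of 83 members and above all of them in 15, where 29.9% and 28.7% of all genes tested did so. The part of depth and of small RNA content in the members' change was not tested.

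Complex I takes electrons from NADH on its peripheral arm and pumps protons through its membrane arm. Ndufv1, which carries the FMN and the NADH site, was at 856, 918 and 864 CPM in Sham, at 878, 530.5, 567 and 862 CPM in NX replicates 1 to 4, and at 476, 502, 457 and 534 CPM in AVF+NX. Its AVF+NX and Sham values did not overlap, and the log2 fold change was -0.84 ± 0.16 (SE, edgeR adjusted p = 0.00328). Ndufb2, a small accessory subunit of the membrane arm, had the lowest fold change of the 83 members. It was at 118, 101 and 98.6 CPM in Sham, at 102, 41.6, 47.7 and 87.0 CPM in NX, and at 37.8, 38.2, 36.9 and 37.7 CPM in AVF+NX. Its AVF+NX libraries lay below all other heart libraries and close to each other, and the log2 fold change against Sham was -1.49 ± 0.25 (edgeR adjusted p = 0.00272). Other accessory subunits fell as well, among them Ndufab1, the mitochondrial acyl carrier protein, by 0.95 on the log2 scale, Ndufb8 by 0.82 and Ndufb7 by 0.48.

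Not all members of complex I moved down. Ndufa4, listed by its name with complex I and known to be found in complex IV, rose by 0.30 ± 0.09 on the log2 scale (edgeR adjusted p = 0.0239). Ndufs1, the largest iron-sulfur subunit, was at 1041, 1074 and 1074 CPM in Sham, at 1191, 1464, 1387 and 1137 CPM in NX, and at 1135, 1243, 1199 and 1203 CPM in AVF+NX. All 8 operated hearts were above all 3 Sham hearts, with NX replicates 2 and 3 highest, but the log2 fold changes of 0.17 ± 0.10 for AVF+NX (edgeR adjusted p = 0.182) and 0.28 ± 0.10 for NX (edgeR adjusted p = 0.173) did not pass the test.

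Complex II is succinate dehydrogenase, an enzyme of both the citric acid cycle and the chain, and none of its subunits is mitochondrially encoded. Sdha, the flavoprotein with the succinate site, was at 1119, 1239 and 1197 CPM in Sham, at 1223, 1176, 1046 and 1118 CPM in NX, and at 835, 904, 918 and 981 CPM in AVF+NX. Here the NX hearts overlapped Sham, with replicate 3 lowest, and the AVF+NX hearts were below all of them. The log2 fold change was -0.38 ± 0.09 against Sham (edgeR adjusted p = 0.00633) and -0.33 ± 0.08 against NX (edgeR adjusted p = 0.0756). Sdhc, a membrane anchor, fell by 0.35 ± 0.09 against Sham (edgeR adjusted p = 0.0095). Sdhb, the iron-sulfur subunit that partners Sdha, went the other way. It was at 573, 599 and 575 CPM in Sham, 596, 711, 719 and 570.2 CPM in NX, and 663, 696, 746 and 735 CPM in AVF+NX. The AVF+NX hearts were above all Sham hearts, by 0.29 ± 0.10 on the log2 scale (edgeR adjusted p = 0.0367).

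In complex III, which passes electrons from ubiquinol to cytochrome c, members split by direction. Cyc1, cytochrome c1, was at 693, 700.2 and 686 CPM in Sham, at 655, 347, 322 and 646 CPM in NX, and at 325, 299, 302 and 357 CPM in AVF+NX. The values formed an upper set of Sham with NX replicates 1 and 4 and a lower set of AVF+NX with NX replicates 2 and 3, and the log2 fold change of AVF+NX against Sham was -1.11 ± 0.22 (edgeR adjusted p = 0.00445). The small subunit Uqcr11 had the same 2 sets, with 392, 359 and 358 CPM in Sham, 385, 141, 149 and 343 CPM in NX, and 135, 131, 116 and 159 CPM in AVF+NX. Its log2 fold change was -1.45 ± 0.32 (edgeR adjusted p = 0.00739). Uqcrb on chromosome 7 and Uqcr10 fell by 0.91 and 0.79 on the log2 scale. The single-exon copy of Uqcrb on chromosome 1 was not called. In heart NX the copy had a mean of 147 CPM, against 137 CPM for Uqcrb on chromosome 7. Reads can be split between such copies by the counting, so both Uqcrb values are uncertain.

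Uqcrh, the hinge protein of complex III, and Uqcrc2, a core protein, rose. Uqcrh was at 371, 322 and 339 CPM in Sham, 339, 519.8, 470.4 and 349 CPM in NX, and 516, 518, 537 and 500.0 CPM in AVF+NX. NX replicates 2 and 3 were again next to AVF+NX, here on the high side, and the log2 fold change against Sham of 0.59 ± 0.14 (edgeR adjusted p = 0.00702) was the highest of the called members. Uqcrc2 was at 859, 864 and 868 CPM in Sham, 993, 1069, 1073 and 973 CPM in NX, and 1015, 1122, 1218 and 1129 CPM in AVF+NX. All 8 operated hearts were above the 3 Sham hearts, and the log2 fold change was 0.38 ± 0.08 for AVF+NX (edgeR adjusted p = 0.0059) and 0.25 ± 0.08 for NX (edgeR adjusted p = 0.173). Exons of Uqcrc2 overlap those of Pdzd9 on the opposite strand, and the strand setting of the counting is not given in the sources used here. Uqcrc1 and the Rieske protein gene Uqcrfs1 had log2 fold changes of -0.15 and -0.22 that did not pass the test (edgeR adjusted p = 0.112 and 0.131). The upstream regions of the 2 members of complex III that rose are shown for comparison with the isoforms above, with the ETS pattern in capitals, at chr5:134790883-134791132 on the minus strand for Uqcrh and at chr1:184598990-184599239 on the plus strand for Uqcrc2 (GRCr8, RefSeq).
Uqcrh: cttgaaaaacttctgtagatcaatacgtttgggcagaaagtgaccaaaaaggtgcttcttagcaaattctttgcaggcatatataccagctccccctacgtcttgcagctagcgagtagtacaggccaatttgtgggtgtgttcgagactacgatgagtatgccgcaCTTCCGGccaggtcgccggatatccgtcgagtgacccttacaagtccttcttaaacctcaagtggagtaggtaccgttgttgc
Uqcrc2: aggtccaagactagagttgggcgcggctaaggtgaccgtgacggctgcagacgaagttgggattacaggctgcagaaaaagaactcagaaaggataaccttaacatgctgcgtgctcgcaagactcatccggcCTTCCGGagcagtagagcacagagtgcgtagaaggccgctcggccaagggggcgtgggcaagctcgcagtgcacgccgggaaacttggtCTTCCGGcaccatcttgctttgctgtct
The pattern begins 83 bases before the start in Uqcrh, and 117 and 28 bases before it in Uqcrc2. It also stood in members that fell, among them Atp5f1a, Ndufb7 and Cox8a, and in Sdhb, which rose. Ndufa4, which rose, and Atp5f1b, which fell, lacked it. Whether the pattern goes with the direction of change was not tested. Over the 67 tested members with a matched upstream region, the log2 fold change of AVF+NX against Sham had a Pearson correlation of -0.06 with the G+C content of that region. The regions of Cox7a2l2 and Atp5md, which may not be their own, are included. This is a description across genes of the same 11 libraries, and 15 such correlations were computed.

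In complex IV, cytochrome c oxidase, both the muscle forms and the general forms fell. Cox6a2 was at 1584, 1527 and 1459 CPM in Sham, 1405, 563, 723 and 1307 CPM in NX, and 558, 634, 609 and 913 CPM in AVF+NX. The AVF+NX hearts and NX replicates 2 and 3 were all below the other hearts, and the log2 fold change of AVF+NX against Sham was -1.17 ± 0.29 (edgeR adjusted p = 0.011). Cox8b was at 1486, 1269.8 and 1215 CPM in Sham, 1254, 585, 528 and 1163 CPM in NX, and 649, 571, 622 and 722 CPM in AVF+NX. It formed the same sets, with a log2 fold change of -1.05 ± 0.27 (edgeR adjusted p = 0.0126). Cox6a1 went from 166 ± 0.923 CPM (SD, n = 3) in Sham to 95.3 ± 13.2 CPM (n = 4) in AVF+NX, with a log2 fold change of -0.80 ± 0.13 (edgeR adjusted p = 0.00217), and Cox8a from 129 ± 4.97 to 85.2 ± 8.95 CPM, with -0.60 ± 0.13 (edgeR adjusted p = 0.00533).

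The balance of the isoforms was compared as shares per length. Cox6a2 made up 91.4% ± 0.365 (SD, n = 3) of the Cox6a pair per length in Sham and 89.0% ± 1.89 (n = 4) in AVF+NX, and Cox8b made up 94.1% ± 0.374 and 92.1% ± 0.329 of the Cox8 pair. Cox4i2 made up 0.487% ± 0.0490 of the Cox4i pair in Sham and 0.741% ± 0.133 in AVF+NX. None of these 3 pairs of ranges overlapped, and the 2-sided exact permutation p was 0.0571 for each, which is the smallest that 4 against 3 libraries allow. None of the 30 isoform comparisons made in both organs passed after adjustment (2-sided exact permutation tests, smallest Benjamini-Hochberg adjusted p = 0.171). Cox4i1, the general form of subunit IV, fell by 0.55 ± 0.11 on the log2 scale (edgeR adjusted p = 0.00335) and Cox5a, another nuclear-encoded subunit, by 0.66 ± 0.13 (edgeR adjusted p = 0.004). Cox6b1 on chromosome 1, with 4 exons, had a log2 fold change of -0.16 that did not pass the test (edgeR adjusted p = 0.266). Its single-exon copy on chromosome 2 fell by 1.11 (edgeR adjusted p = 0.0177), and reads of such copies can be split between them by the counting, so both values are uncertain.

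In complex V, the ATP synthase, genes of the catalytic head, the stalks and the membrane ring fell. Atp5f1b was at 5621, 5799 and 5663 CPM in Sham, 6069.6, 6103, 5828 and 5865 CPM in NX, and 4541, 4960.5, 4963 and 5070.5 CPM in AVF+NX. All NX hearts were above all Sham hearts and all AVF+NX hearts were below both groups, with the 4 NX libraries together. Its log2 fold change was -0.22 ± 0.08 against Sham (edgeR adjusted p = 0.039) and -0.29 ± 0.07 against NX (edgeR adjusted p = 0.0756). Atp5f1a fell by 0.33 ± 0.08 against Sham (edgeR adjusted p = 0.00854), and the central stalk subunits Atp5f1e and Atp5f1d by 0.97 and 0.98. Atp5c1, the gamma subunit of the central stalk, had a log2 fold change of -0.07 ± 0.09 that did not pass the test (edgeR adjusted p = 0.577), and it is named here after its value was seen.

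The proton-carrying c ring is encoded by 3 genes for the same mature protein. Atp5mc3 was at 983, 1019 and 979.9 CPM in Sham, 946, 460.1, 435 and 991 CPM in NX, and 388, 406, 387 and 408 CPM in AVF+NX. The AVF+NX hearts were below all other hearts, and the log2 fold change against Sham was -1.32 ± 0.25 (edgeR adjusted p = 0.00398). Atp5mc1 and Atp5mc2 fell by 0.70 ± 0.16 and 0.72 ± 0.18 (edgeR adjusted p = 0.00591 and 0.0115). Per length, Atp5mc3 went from 44.5% ± 1.05 of the 3 genes in Sham to 41.3% ± 4.52 in NX and 34.4% ± 1.32 in AVF+NX, and Atp5mc1 from 41.8% ± 0.5 to 45.0% ± 3.52 and 49.7% ± 0.943 (SD, n = 3, 4 and 4). The Atp5mc3 ranges of AVF+NX and NX did not overlap (2-sided exact permutation p = 0.0286, the smallest that 4 against 4 allow, adjusted p = 0.171 over the 30 comparisons). Atp5md, named as a small membrane subunit, was the 1 member of complex V that rose, by 0.30 ± 0.11 (edgeR adjusted p = 0.0467). Its counted identifier has a single exon on chromosome 10, whereas the RefSeq gene matched to it by synonym lies on chromosome 1. The counted gene may be a copy, so its value is uncertain.

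**Figure D3:**
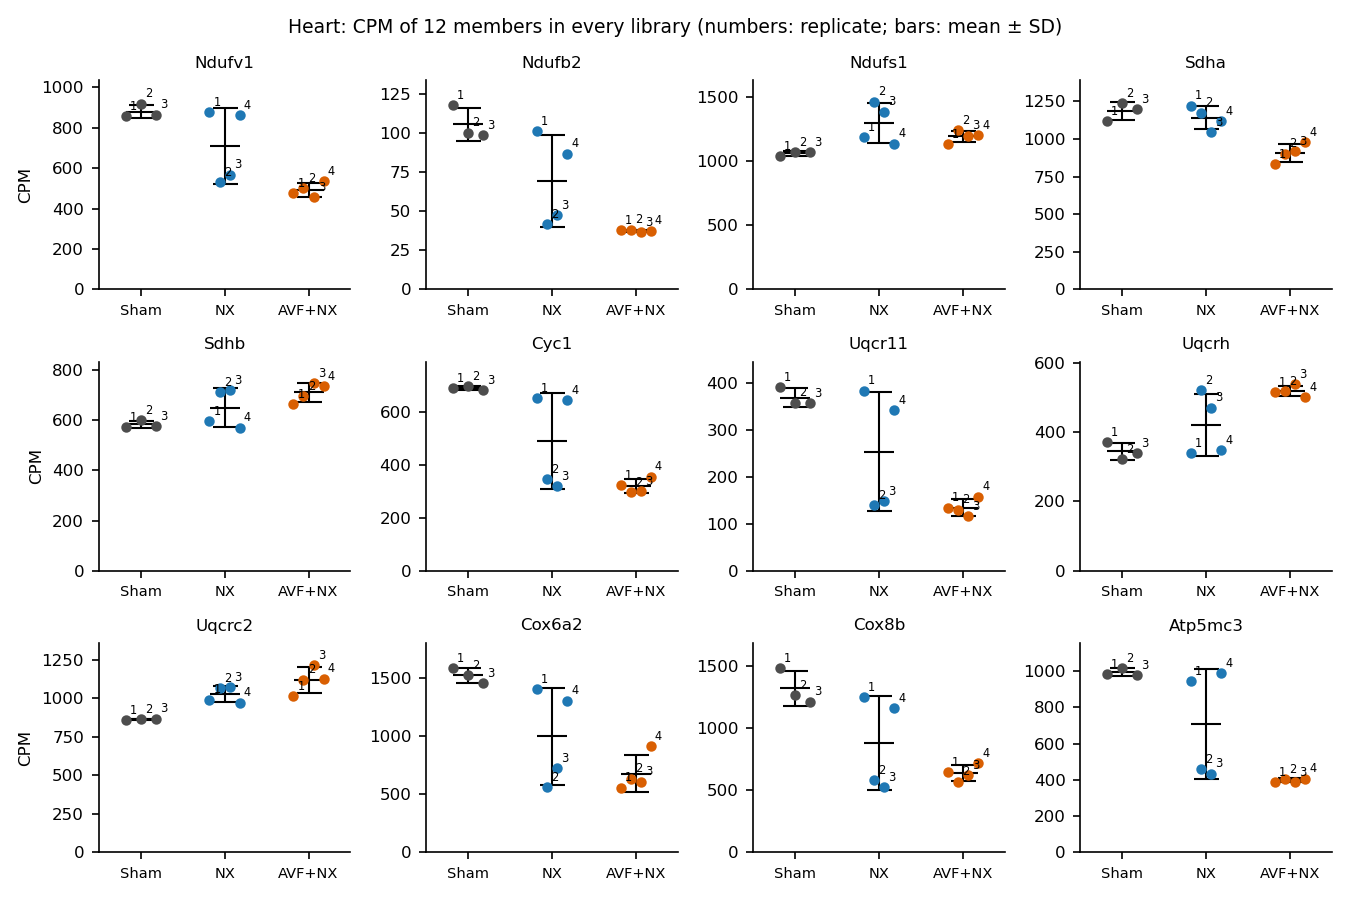
CPM of 12 members in every heart library, with replicate numbers, and bars for the group mean ± SD. In Ndufv1, Ndufb2, Cyc1, Uqcr11, Cox6a2, Cox8b and Atp5mc3 the NX hearts split, with replicates 2 and 3 near AVF+NX and replicates 1 and 4 near Sham, whereas in Sdha the 4 NX hearts stay together above AVF+NX.

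Nephrectomy alone was compared with sham surgery, and with the combined operation, to separate the volume load from the kidney disease. No member was called in the heart for NX against Sham, where 0% of 12794 genes were called, or for AVF+NX against NX, where 0.336% were called (0.172% higher and 0.164% lower). At an unadjusted p under 0.05, 33 and 35 members passed in edgeR, and the smallest adjusted p of a member was 0.153 and 0.0545. DESeq2 called 1 and 17 members (344 and 823 of all genes), and limma voom with quality weights 40 and 0 (2270 and 0 of all genes). The NX hearts lay below all Sham hearts in 18 members and above in 6 (8.94% and 6.92% of all genes tested), and the AVF+NX hearts lay below all NX hearts in 13 and above in 0 (5.1% and 4.96%). The median log2 fold change of the members was -0.19 for NX against Sham and -0.17 for AVF+NX against NX.

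These counts changed with the NX libraries that were kept, and so did those of all genes. NX replicates 2 and 3 were both below replicates 1 and 4 in 48 of 83 members (57.8%) and both above them in 14 (16.9%), against 31.9% and 29.3% of all genes tested. Without NX replicates 1 and 4, 49 members were called against Sham (7 higher and 42 lower, among 4166 genes in all) and 0 for AVF+NX against NX (12 genes in all). Without NX replicates 2 and 3, 0 were called against Sham (0 genes in all), and 43 for AVF+NX against NX (3 higher and 40 lower, among 3684 genes in all). Which pair stands for nephrectomy alone cannot be told apart from depth and the small RNA index, which divide the same pairs.

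Of the 83 members, 13 had all 4 AVF+NX hearts below all 7 other hearts, and 0 had them above (4.08% and 3.76% of all genes tested). They were Ndufab1, Ndufb2, Ndufb7, Ndufb9 and Ndufs3 of complex I, Sdha and Sdhc of complex II, Uqcrc1 of complex III, Cox7a2l2 of complex IV, and Atp5f1a, Atp5f1b, Atp5h and Atp5mc3 of complex V. These 13 were named after their values had been seen.

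**Figure D4:**
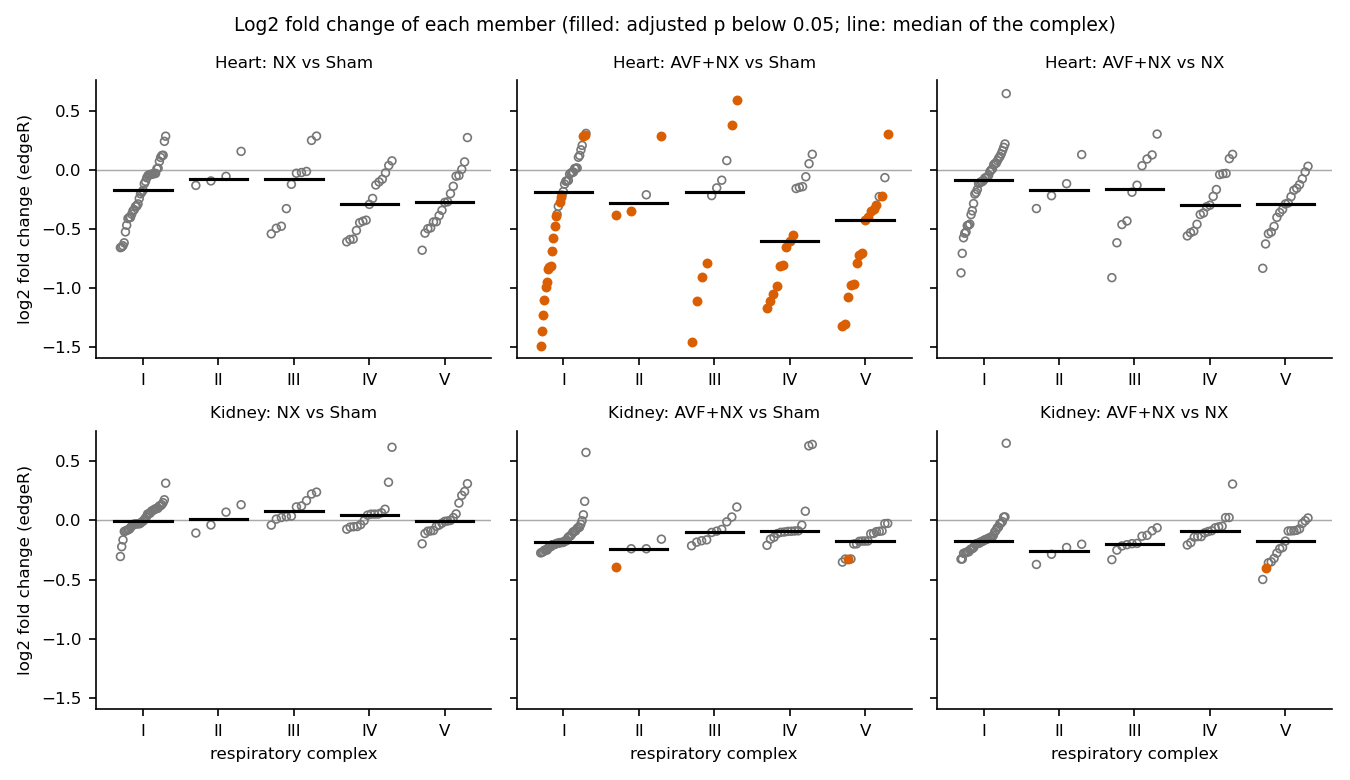
Log2 fold change (edgeR) of every tested member by complex, for the 3 comparisons in the heart (top) and in the kidney (bottom). Filled points passed an adjusted p of 0.05 and lines are medians of a complex. The heart comparison of AVF+NX with Sham holds 50 filled points, and the 3 kidney comparisons hold 0, 2 and 1.

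As a set, the subunits transcribed from mitochondrial DNA did not follow the nuclear ones in the heart. Of 13 mitochondrial genes, 2 rose (Mt-nd4l by 0.63 and Mt-co1, the catalytic subunit of complex IV, by 0.44) and 1 fell (Mt-nd6, by 0.86) in AVF+NX against Sham, with a median log2 fold change of 0.16. The values ran from -1.76 to 0.63, and the lowest belonged to another gene that was not called. The ratio of summed mitochondrial to summed nuclear subunit counts was 4.37, 4.90 and 5.08 in the Sham hearts, 4.81, 4.83, 5.21 and 4.99 in NX replicates 1 to 4, and 6.64, 6.77, 6.24 and 7.40 in AVF+NX. All AVF+NX hearts were above all others, and NX replicates 2 and 3 lay with replicates 1 and 4 in this ratio. Its denominator is the nuclear sum, which was lower in AVF+NX. The mitochondrial sum itself was 198390 to 220090 CPM in Sham, 184068 to 212705 CPM in NX and 217479 to 274523 CPM in AVF+NX, so Sham and AVF+NX overlapped. In the kidney the ratio was 4.21 to 5.38 in Sham, 2.21 to 5.30 in NX and 3.99 to 5.46 in AVF+NX, and the groups overlapped.

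Other mitochondrial genes in the heart were counted from lists of names. Of 43 tested assembly factors of the chain, 14 fell and 8 rose in AVF+NX against Sham, with a median log2 fold change of -0.08. The copper chaperone gene Cox17 fell by 0.82 (edgeR adjusted p = 0.00112) and the complex III assembly factor Lyrm7 rose by 0.80 (edgeR adjusted p = 0.00628). Of 25 genes of the mitochondrial ribosome and translation, 11 fell and 0 rose, with a median of -0.10. Of 12 citric acid cycle genes 3 fell and 2 rose. Of 16 regulators of mitochondrial biogenesis 6 fell and 1 rose, with a median of 0.004 and values from -1.96 to 0.38. Among those that fell, Esrra, an orphan nuclear receptor that activates respiratory genes, fell by 1.96 (edgeR adjusted p = 0.00639). Its coactivator Ppargc1b fell by 0.49 (edgeR adjusted p = 0.00364). The part of these regulators in the members' change was not tested. All genes tested in this comparison had a median of 0.01, and 18.6% of them fell.

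Genes of other cell types moved in the same hearts. Of 6 tested fibroblast markers 5 rose and 0 fell, and their summed level was 1447 to 1937 CPM in Sham, 1542 to 2424 CPM in NX and 2309.9 to 3639.7 CPM in AVF+NX. Of 14 tested cardiomyocyte markers 6 fell and 1 rose, with a median log2 fold change of -0.17, and their sum of 85335 to 97725 CPM in Sham and 81945 to 92378 CPM in AVF+NX overlapped. Of the other lists, 3 of 5 tested endothelial markers rose, 2 of 7 macrophage markers rose and 1 fell, and 0 of 5 smooth muscle markers were called. The part of cell composition in the members' change was not tested.

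Gene length also moved with the heart result. The members are short, with a median length of 704.5 bases, and 57 of 84 were under 1000 bases. In AVF+NX against Sham, all genes tested of up to 500 bases had a median log2 fold change of -0.41, and those over 4000 bases of 0.14. The 23 members of up to 500 bases had a median of -0.81, and 16 of them fell and 1 rose. Members of 500 to 1000 bases had a median of -0.31 (18 of 33 fell) against -0.22 for all genes of that length, and those of 1000 to 2000 bases -0.15 (7 of 22 fell) against -0.08. The 4 members of 2000 to 4000 bases had a median of -0.67 (3 fell) against 0.04. Of all genes in these 4 classes, from short to long, 39.2%, 31.3%, 22.5% and 16.2% fell. After removal of each library's trend with length, 48 members were called, of which 42 were the same, with 36 lower and 12 higher, and the members' median became -0.08 against 0.03 for all genes. Over the 83 members the Pearson correlation of the log2 fold change with the log2 length was 0.30.

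**Figure D5:**
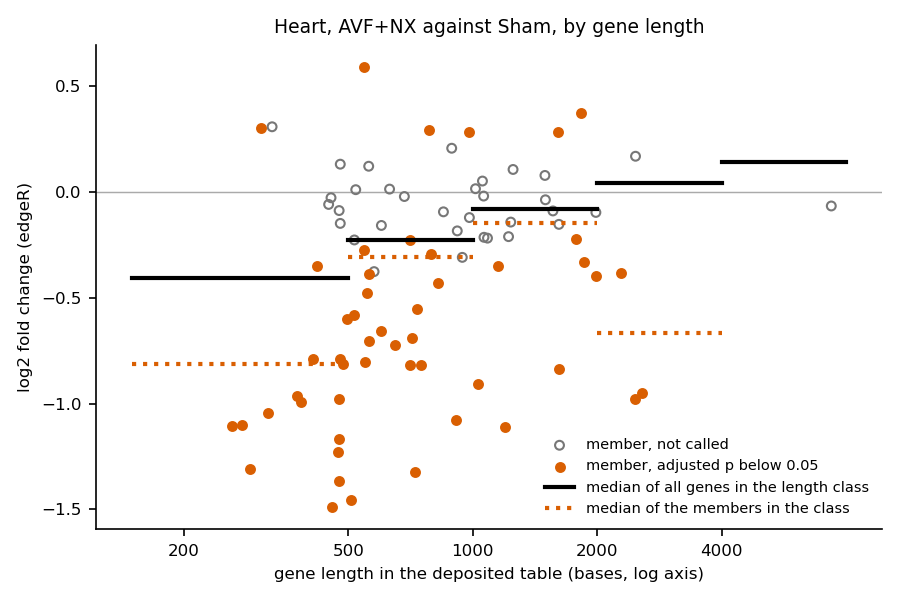
Log2 fold change (edgeR) of AVF+NX against Sham in the heart for each of 83 members, plotted against gene length on a log axis. Solid lines give the median of all tested genes in a length class and dotted lines that of the members. The members of up to 500 bases have a median of -0.81 against -0.41 for all genes of that length.

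In the kidney, which was itself operated on in both nephrectomy groups, few subunits were called. Nephrectomy alone called 0 of 81 tested members, where 1.31% of 14322 genes were called, 0.859% higher and 0.447% lower (2 members at an unadjusted p under 0.05 in edgeR, and 0 called by DESeq2 or limma voom), and the members' median log2 fold change was 0.01. In AVF+NX against Sham 2 members fell and 0 rose, in a comparison in which 25.1% of all genes were called (15.9% higher and 9.18% lower), and the median was -0.16, with 73 of 81 members below 0. In AVF+NX against NX 1 member fell, where 6.07% of all genes were called (4.87% higher and 1.20% lower), and the median was -0.16. The AVF+NX kidneys lay below all Sham kidneys in 5 members and below all NX kidneys in 5, and above them in 0 (11.2%, 4.31%, 16.4% and 7.49% of all genes tested). The NX kidneys lay above all Sham kidneys in 2 members and below them in 0 (5.28% and 4.1%). DESeq2 called 5 members in each of these comparisons with AVF+NX (4068 and 1521 of all genes), and limma voom 13 and 2 (4922 and 1106 of all genes). The summed level of the members was 17429 to 19181 CPM in Sham, 17327 to 20973 CPM in NX, and 13287, 16186, 18675 and 16258 CPM in AVF+NX replicates 1 to 4, and the groups overlapped.

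The members that fell were Sdha and Atp5po, a stalk subunit of ATP synthase, in AVF+NX against Sham, and Atp5s, known as coupling factor B, in AVF+NX against NX. Sdha was at 715, 749, 805 and 780.4 CPM in kidney Sham, at 652, 749, 808 and 623 CPM in NX, and at 482, 602, 677 and 562 CPM in AVF+NX. The AVF+NX kidneys were below all Sham kidneys and overlapped NX, and the log2 fold change of -0.39 ± 0.12 against Sham (edgeR adjusted p = 0.0277) was close in size to that of the heart. Atp5po was at 385, 420.1, 415 and 411 CPM in Sham, at 353, 408, 453 and 361 CPM in NX, and at 272, 324, 386 and 319 CPM in AVF+NX. Its AVF+NX and Sham values overlapped by 1 library, and the log2 fold change was -0.33 ± 0.11 (edgeR adjusted p = 0.049). Atp5s was at 25.1, 25.1, 25.0 and 25.5 CPM in NX and at 15.8, 19.0, 18.5 and 23 CPM in AVF+NX, a log2 fold change of -0.40 ± 0.11 (edgeR adjusted p = 0.048). Without AVF+NX replicate 1, 0 members were called against Sham and 0 against NX, and without replicate 3, 13 and 5 were called. The counts of all genes in these refits are not given here, so the changes cannot be read as particular to the members.

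Kidney cell markers moved beside these values. Of 12 proximal tubule markers 6 fell and 0 rose in AVF+NX against Sham, with a median log2 fold change of -0.70, and their summed level was 26212 to 34015 CPM in Sham, 17404 to 27577 CPM in NX and 15252 to 22960.3 CPM in AVF+NX. Lrp2, the megalin receptor of that segment, fell by 0.81 (edgeR adjusted p = 0.00293). All 7 macrophage markers rose, as did 5 of 5 tested B and plasma cell markers and 5 of 6 fibroblast markers. The part of these cells in the members' change was not tested. Of the mitochondrially encoded subunits 0 of 13 were called, and of the assembly factors 7 fell and 1 rose of 43. Of 12 citric acid cycle genes 3 fell, of 16 regulators 3 fell, and of 25 mitochondrial ribosome and translation genes 1 fell, with 0 higher in each.

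The difference between the organs was tested itself, in a model of all 23 libraries. For AVF+NX against Sham, 35 of 84 members had a heart effect that differed from the kidney effect, 26 lower in heart and 9 higher, where 27.9% of 15222 genes were called (14.6% lower and 13.3% higher). Cox6a2 is among the 26, but its kidney groups held only 2 to 11 counts each. Ndufb2 (log2 difference of effects, heart minus kidney, -1.31 ± 0.28, edgeR adjusted p = 0.00201), Atp5mc3 (-1.21 ± 0.27, adjusted p = 0.00268) and Ndufa13, a subunit also known as GRIM-19 (-1.14 ± 0.24, adjusted p = 0.00172), had the smallest p among the lower ones. Uqcrc2 (0.65 ± 0.15, edgeR adjusted p = 0.00304) and Uqcrh (0.69 ± 0.19, adjusted p = 0.0101) were among the higher ones. This direction changed with the length setting. After removal of the length trend 35 members were again called, but 29 were higher in heart and 6 lower, and 15 were shared. Before that removal, 26.0% of all genes of up to 500 bases were lower in heart and 2.16% higher. Of all genes over 4000 bases, 10.9% were lower and 22.3% higher. The shares of all genes after the removal are not given here, so the turn cannot be read as particular to the members. For NX against Sham and for AVF+NX against NX 0 members differed between the organs in edgeR, where 0.158% (0.0788% in each direction) and 1.12% (0.250% higher and 0.867% lower) of genes were called (11 and 12 members at an unadjusted p under 0.05, with 1 and 0 called by DESeq2 and 25 and 0 by limma voom).

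The same comparisons were also read from the authors' deposited tables. At an adjusted p below 0.05, the authors' deposited table for heart AVF+NX against Sham had 50 members lower and 8 higher of 83, where 40.4% of its genes were called, and the authors' deposited table for heart AVF+NX against NX had 9 lower and 0 higher, where 3.40% were. The authors' deposited tables for kidney had 7 members lower of 81 in AVF+NX against Sham (31.1% of genes called) and 1 lower in AVF+NX against NX (7.86%). The authors' deposited tables for NX against Sham had 0 members in either organ, where 0.726% of genes were called in heart and 5.85% in kidney.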

How the data were processed

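Per the labels, poly(A) RNA of 11 heart and 12 kidney samples was sequenced strand-specifically. The authors deposited raw read counts per gene for each library, together with gene coordinates and lengths per the file headers. The authors also deposited tables of log2 fold changes, p-values and scaled signal values (counts divided by a factor per library) per the file headers, used here for gene symbols and for the sentences that name them. The submitters' processing notes list Trimmomatic 0.36, STAR 2.5.2b, featureCounts and Subread 1.5.2, with no role or order, and no source used here names the genome build, annotation or strand setting.

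Counts were tested in R 4.3.3 with edgeR 4.0.16 (filterByExpr, TMM, robust quasi-likelihood), in 1 model of 3 groups per organ and in 1 model of all 23 libraries for differences between organs. P-values were Benjamini-Hochberg adjusted over all genes tested, and calls used 0.05. They measure the spread between libraries. DESeq2 1.42.0 and limma 3.58.1 were alternatives, and each replicate was left out in turn. The code was tested on simulated data. CPM used TMM-scaled totals, TPM the deposited lengths. Isoform shares were compared by exact permutation in SciPy 1.17.1. Intervals cover counting error only. No replicate pair agreed within sampling noise (lowest chi-square per degree of freedom 6.15).

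The members and gene lists were chosen with earlier results of these data known. Values are given for up to 4 called members with the smallest p per complex, direction and comparison. They are also given for catalytic or core subunits, for Cox5a and for isoform pairs. Thinning, the left-out NX pairs, the counts of members below all other hearts and the promoter patterns were added after the data were seen. Promoters are RefSeq, GRCr8, matched by symbol or synonym, and the counts' own coordinates were not used with them. Some results covered by the rule on named members are not reported here, and they remain in the counts.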

Additional observations from a re-analysis of the deposited data

Results flagged for a closer look

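The effect of AVF+NX against Sham differed between heart and kidney in 35 of 84 members by the test of the difference itself (edgeR's quasi-likelihood test, adjusted p below 0.05), where 27.9% of 15222 genes were called. Of these, 26 were lower in heart and 9 higher. After removal of the length trend 35 were called, but with 29 higher and 6 lower, and 15 were shared. The shares of all genes after that removal are not given here. Among those given by name, the difference of log2 effects, heart minus kidney, was -1.31 for Ndufb2, -1.21 for Atp5mc3, -1.14 for Ndufa13, 0.65 for Uqcrc2 and 0.69 for Uqcrh. The part of depth and cell types in these differences was not tested.

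A library stood apart from the rest of its group in 2 of 124 groups of 4 libraries examined, and chance alone gives about 1 in 20. Both concerned Atp5s. One heart AVF+NX library was at 15.1 CPM, with the others at 17.6 to 18.1 CPM, and one kidney NX library was at 25.5 CPM, with the others at 25.0 to 25.1 CPM. Only members that passed the count filter in the organ were examined, a limit set after Cox6a2, with almost no kidney counts, had stood out.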

How the results depend on the processing

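The count of 50 members called for heart AVF+NX against Sham was 45 to 56 under RLE factors, nuclear genes only, no count filter, DESeq2, limma voom, the length trend removed, the 2 groups alone, a replicate block and thinning, and 39 to 47 with a replicate left out, but 0 when the total count, and 0 when the small RNA index, was added as a covariate. Removing the length trend moved its split from 6 higher and 44 lower to 12 and 36. For heart NX against Sham the count of 0 became 1 under DESeq2, 40 under voom, 1 with the replicate block and 49 without NX libraries 1 and 4, and 0 to 7 with a replicate left out (7 without NX 1). For heart AVF+NX against NX it became 1 with nuclear genes only, 17 under DESeq2 and 43 without NX libraries 2 and 3, and 0 to 14 with a replicate left out (14 without NX 3). For kidney AVF+NX against Sham the count of 2 became 1 with no filter, 5 under DESeq2, 13 under voom, 7 with the total count, 0 with the small RNA index, 5 with the length trend removed and 9 with the replicate block, and 0 to 13 with a replicate left out. For kidney AVF+NX against NX the count of 1 became 0 with no filter, 5, 2, 0, 4 and 13 under DESeq2, voom, the small RNA index, the length trend and the replicate block, 0 with the 2 groups alone, and 0 to 5 with a replicate left out. The organ difference for AVF+NX against Sham ranged from 24 to 39 under RLE factors, nuclear genes only, no filter, DESeq2, voom and the length trend removed, the settings run for it, and from 21 (without heart Sham 1) to 32 with a replicate left out, and RLE factors gave 11 higher and 17 lower. For NX against Sham it became 1 under DESeq2, 25 under voom and 0 to 1 with a replicate left out, and for AVF+NX against NX 2 with the length trend removed and 0 to 2 with a replicate left out. Sham heart against Sham kidney kept 81 to 83 calls. Counts of all genes are given above for only some of these settings, so the changes cannot be read as particular to the members. The causes were not tested.

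Same-numbered libraries correlated at -0.12 to 0.12 in heart and -0.07 to 0.38 in kidney, and 2 of 20 heart and 13 of 24 kidney comparisons matched best with their own number, so a shared number did not establish pairs. In kidney the median correlation was 0.17 for same-numbered libraries against -0.01 for the others. What same-numbered kidney libraries share was not tested. Of the named members' values, 112 passed the threshold only under an alternative, 129 lost it, 3596 stayed on their side, and 0 changed sign while called.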

Other observations

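Kidney NX replicate 4 differed from the other kidney NX libraries. It had 18782085 counts against 9360065 to 9458673, its ratio of mitochondrially encoded to nuclear subunit counts was 2.21 against 4.84 to 5.30, and Atp5mc2 made up 13.0% of the 3 c-ring genes per length, the lowest of the kidney NX libraries. The summed nuclear subunits of that library, 17384 CPM, lay within the range of its group.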
